A study of Homo sapiens with 7 samples.

Results

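The miRNA clusters of the host genes MIR17HG, from miR-17 to miR-92a-1, and MCM7, miR-106b-25, were followed in small RNA libraries from small extracellular vesicles (sEVs). The vesicles came from HepG2, an established line of human liver cancer cells. The 9 main mature arms, 6 from the MIR17HG cluster and 3 from the MCM7 cluster, were taken by name from the 2656 mature miRNAs in the count table, of which 406 had a read in any library. The set was chosen by the difference between shSYNCRIP and shCTR sEVs itself, because miR-106b-5p and miR-18a-5p went opposite ways in that contrast, so all contrast values of the members are a description and carry no test.

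The series held 7 sEV libraries, 3 labelled shCTR and 4 labelled shSYNCRIP, each marked as a biological replicate. The shCTR cells carried a scrambled short hairpin RNA and the shSYNCRIP cells a hairpin against SYNCRIP, an RNA-binding protein that loads miRNAs into vesicles. The study's methods describe the knockdown as a lentiviral shRNA, selected with puromycin and induced with doxycycline, and do not repeat these steps for the control. All libraries came from medium with exosome-free serum conditioned for 72 h, and the vesicles were pelleted by differential centrifugation. The cell line field of the labels counts up from HepG2 to HepG8 over the libraries while every title names HepG2, and the titles were followed. A small RNA library cannot report SYNCRIP mRNA, so the knockdown could not be checked in these data.

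The MIR17HG cluster, known as oncomiR-1, is a polycistron: a single primary transcript folds into several hairpins that Drosha and Dicer cut into separate mature miRNAs. The miR-106b-25 cluster is its paralog and is spliced out with an intron of MCM7, a subunit of the replicative helicase. Both clusters are induced by MYC and E2F factors, are high in liver cancer and in proliferating cells, and repress cell cycle inhibitors and the proapoptotic BIM. Target choice rests mainly on the seed, bases 2 to 8 of the mature miRNA, and members of one cluster belong to different seed families.

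All 9 members matched a RefSeq mature sequence (GRCh38.p14). The sequences are shown because they separate what shares a transcript from what shares a seed, with the seed in capitals, 5′ to 3′. The first 6 lie in order along an exon of MIR17HG, and the last 3 in an intron of MCM7 on the minus strand.
hsa-miR-17-5p: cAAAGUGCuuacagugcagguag
hsa-miR-18a-5p: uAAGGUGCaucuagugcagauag
hsa-miR-19a-3p: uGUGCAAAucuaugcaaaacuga
hsa-miR-20a-5p: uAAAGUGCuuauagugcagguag
hsa-miR-19b-3p: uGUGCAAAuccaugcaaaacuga
hsa-miR-92a-3p: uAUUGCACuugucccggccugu
hsa-miR-106b-5p: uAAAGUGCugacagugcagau
hsa-miR-93-5p: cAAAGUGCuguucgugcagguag
hsa-miR-25-3p: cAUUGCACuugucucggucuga

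The 6 hairpins of the MIR17HG cluster span 787 bases of chromosome 13, chr13:91350605-91351391 on the plus strand, in which miR-17-5p occupies chr13:91350618-91350640 and miR-18a-5p chr13:91350756-91350778. The miR-106b and miR-25 hairpins bound 515 bases of chromosome 7, chr7:100093560-100094074, with miR-106b-5p at chr7:100094043-100094063, miR-93-5p at chr7:100093815-100093837 and miR-25-3p at chr7:100093571-100093592. AAAGUGC was shared by 4 members from both clusters, miR-17-5p, miR-20a-5p, miR-106b-5p and miR-93-5p. AUUGCAC was shared by miR-92a-3p and miR-25-3p, GUGCAAA by miR-19a-3p and miR-19b-3p, and AAGGUGC belonged to miR-18a-5p alone. The miR-19b-3p and miR-92a-3p sequences also occur in a second hairpin each on chromosome X, so their reads cannot be assigned to one locus.

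Library totals ranged from 106376 to 388226 counts in shCTR and from 29863 to 240984 in shSYNCRIP, with shSYNCRIP replicate 2 the shallowest and shSYNCRIP replicate 4 detecting the fewest miRNAs, 100 against up to 275. A floor of 3 counts corresponded to between 7.73e-04% and 0.0100% of a library. These totals and the 95% Wilson intervals below describe counting error only, since the reads were counted without molecular identifiers. Of 6 hepatocyte miRNAs, miR-122-5p was found in every library (313 to 1664 counts) and miR-885-5p and miR-122-3p in none, and the list held 0.523% to 1.01% of the counts in shCTR and 0.272% to 1.49% in shSYNCRIP. Of 8 blood cell miRNAs all 8 were detected in some library, but only 1, miR-486-5p, in every library (2644 to 34044 counts). miR-144-3p and miR-144-5p were found in shSYNCRIP replicate 3 alone. The list held 10.9% to 19.9% of the counts in shCTR and 8.85% to 13.9% in shSYNCRIP, most of them from miR-486-5p. The part of these marker miRNAs in the results was not tested.

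The members together made up a similar part of every sEV library. They took 7.73%, 8.91% and 8.23% of the counts in the shCTR libraries and 7.95%, 8.61%, 10.9% and 8.22% in the shSYNCRIP libraries. The MIR17HG arms held 5.52%, 4.02% and 2.95% in shCTR against 4.84%, 4.03%, 5.86% and 6.31% in shSYNCRIP. The MCM7 arms held 2.21%, 4.89% and 5.28% in shCTR against 3.11%, 4.57%, 5.03% and 1.91% in shSYNCRIP. The groups overlapped for both clusters. Behind these sums, single members ranged from 9969 counts to 0.

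Levels are given as CPM, counts relative to the library total after TMM scaling. A miRNA read spans the whole molecule, so no length correction applies between members, although each level also carries the ligation efficiency of its own sequence. In mean log2 CPM over the 7 libraries (prior count 2) the order was miR-25-3p at 14.20, miR-17-5p at 13.95, miR-92a-3p at 13.75, miR-20a-5p at 13.37, miR-93-5p at 12.75, miR-18a-5p at 10.99, miR-106b-5p at 10.04, miR-19b-3p at 4.56 and miR-19a-3p at 3.63, the last being the value that 0 counts receives. None of the 8 neighbouring pairs in this order differed at an adjusted p below 0.05 by a two-sided exact sign-flip permutation test over the libraries, and 1 did at an unadjusted p below 0.05, miR-106b-5p over the nearly undetected miR-19b-3p (exact p = 0.0313, adjusted p = 0.25). Neighbours were taken from the order of the same means, so their differences are small by construction. The smallest exact p that 7 libraries allow, 0.0156, also cannot reach an adjusted 0.05 for a single pair of the 8. The test therefore cannot show that neighbours have equal levels.

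**Figure D1:**
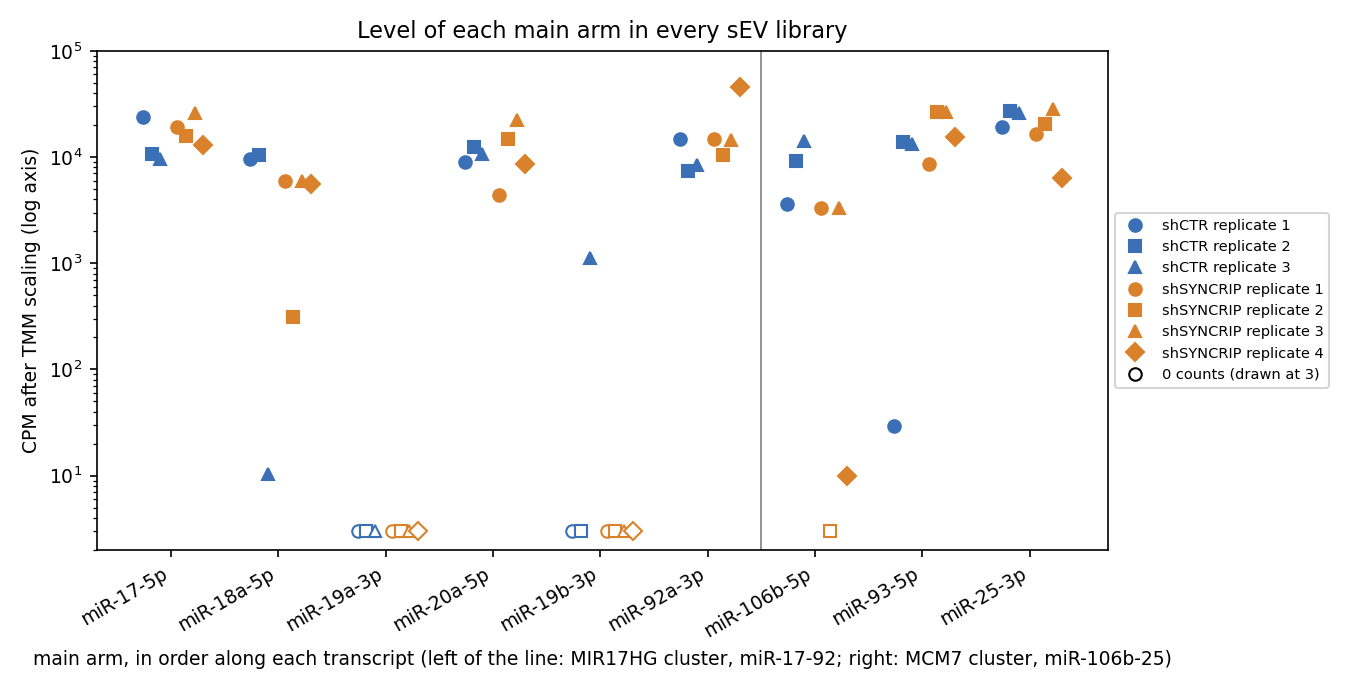
CPM after TMM scaling on a log axis for the 9 main arms, with 1 point per library, coloured by group and shaped by replicate. Open symbols mark libraries with 0 counts, drawn at 3. The points of miR-17-5p, miR-20a-5p, miR-92a-3p and miR-25-3p stay at 4346 CPM or more, while miR-18a-5p, miR-106b-5p and miR-93-5p each have libraries far below the rest.

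miR-17-5p, the member after which the cluster is named and a repressor of CDKN1A, was abundant in every library. Its counts were 2440, 1535 and 3678 in shCTR and 3186, 460, 5327 and 1299 in shSYNCRIP. The corresponding CPM were 14647 ± 7860 (SD, n = 3) and 18478 ± 5510 (SD, n = 4), and the groups overlapped. miR-20a-5p, which shares its seed and differs from it by C1U and C12U (positions from the 5′ end, miR-17-5p base first), had 925, 1798 and 4091 counts in shCTR and 717, 429, 4565 and 864 in shSYNCRIP. Its CPM were 10710 ± 1765 (SD, n = 3) and 12459 ± 7712 (SD, n = 4), again overlapping.

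miR-92a-3p, which restrains angiogenesis, had 1523, 1058 and 3265 counts in shCTR and 2429, 306, 3015 and 4541 in shSYNCRIP. In CPM it reached 14793, 7363 and 8485 against 14724, 10523, 14591 and 45444, so that shSYNCRIP replicate 4 alone stood apart. In that library it took 62.6% of the MIR17HG cluster counts (95% interval 61.4 to 63.7), against 21.3% to 33.3% in the other shSYNCRIP libraries and 17.9% to 28.5% in shCTR.

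The miR-19 members, which carry much of the oncogenic activity of the cluster in lymphoma, were nearly missing. miR-19a-3p had 0 counts in all 7 libraries. miR-19b-3p, which differs from it by U11C (miR-19a-3p base first), had 427 counts, or 1110 CPM, in shCTR replicate 3 and 0 in the other 6 libraries. Neither passed the filter on low counts, so 7 of the 9 members were fitted.

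miR-18a-5p was the most uneven arm of the MIR17HG cluster. It had 981, 1508 and 4 counts in shCTR and 970, 9, 1223 and 555 in shSYNCRIP. In CPM these were 9529, 10495 and 10.4 against 5880, 309.5, 5919 and 5554. Both shCTR libraries with more than 4 counts lay above every shSYNCRIP library, and the third lay below every one. The 4 counts of shCTR replicate 3 came from the deepest library, in which the neighbours miR-17-5p and miR-20a-5p had 3678 and 4091.

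In the MCM7 cluster, miR-25-3p, a relative of miR-92a-3p by seed, was the highest of the 3 arms in 5 of the 7 libraries. It had 1978, 3890 and 9969 counts in shCTR and 2726, 598, 5900 and 638 in shSYNCRIP. The CPM were 24064 ± 4242 (SD, n = 3) and 18007 ± 9220 (SD, n = 4), with overlapping groups and the lowest value, 6385, in shSYNCRIP replicate 4.

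miR-93-5p, which differs from miR-17-5p by U10G, A11U, C12U and A13C and has the same seed, had 3, 1994 and 5110 counts in shCTR and 1419, 768, 5535 and 1551 in shSYNCRIP. Its CPM were 29.1, 13877 and 13280 against 8602, 26410, 26786 and 15522. The single low value, shCTR replicate 1, stood beside 372 counts of miR-106b-5p and 1978 of miR-25-3p in the same library.

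miR-106b-5p, a repressor of CDKN1A like its seed relatives, had 372, 1306 and 5407 counts in shCTR and 541, 0, 691 and 1 in shSYNCRIP. In CPM the values were 3613, 9089 and 14052 against 3279, 0, 3344 and 10.01. No shSYNCRIP library reached the lowest shCTR library, which held for 5 of the 117 miRNAs tested (4.27%), and miR-106b-5p was the only member among those 5. The gap between the groups was narrow, from 3344 to 3613 CPM. shSYNCRIP replicates 2 and 4 held 0 and 1 counts.

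The fitted difference between shSYNCRIP and shCTR was taken from limma-voom over 117 miRNAs, with the study's cutoffs of a nominal p below 0.1 and a fold change beyond 0.5, the latter read here as log2 because the study does not name the scale. Under these, 15 of the 117 were lower (12.8%) and 6 higher (5.13%). miR-106b-5p was among the lower and miR-18a-5p among the higher, which is the pair of values that chose the set. None of the 7 fitted members met the criteria with the edgeR quasi-likelihood test or with DESeq2. Few miRNAs did at all: of the 117, 3 were lower and 5 higher with quasi-likelihood, and 4 lower and 7 higher with DESeq2.

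The limma-voom log2 fold change of miR-106b-5p was -5.77 (SE 1.88), and it was -2.42 by quasi-likelihood and -2.72 (SE 1.79) by DESeq2. Its sign held with each library left out in turn, from -7.24 to -4.24. Without shSYNCRIP replicates 2 and 4 together the value was -1.81 and miR-106b-5p no longer met the criteria. The fold of the group means in CPM was 0.186, from 8918 ± 5222 (SD, n = 3) to 1658 ± 1909 (SD, n = 4).

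For miR-18a-5p the direction depended on how the same counts were fitted. limma-voom gave 4.43 (SE 1.97), whereas quasi-likelihood gave -0.60 and DESeq2 -0.55 (SE 1.56). The positive value rested on shCTR replicate 3 with its 4 counts, and without that library limma-voom gave -1.08. The mean CPM was lower in shSYNCRIP, 4416 ± 2742 (SD, n = 4) against 6678 ± 5794 (SD, n = 3), while the mean log2 CPM was higher, 11.46 ± 2.09 against 10.36 ± 5.07. miR-106b-5p and miR-18a-5p thus had opposite signs with limma-voom and the same sign with both count models.

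The other 5 fitted members met the criteria in neither direction with this fit. With limma-voom, miR-17-5p gave 0.76 (SE 0.58), miR-20a-5p -0.06 (SE 0.70) and miR-92a-3p 1.02 (SE 0.64). In the MCM7 cluster miR-25-3p gave -0.55 (SE 0.55), and -1.29 without shSYNCRIP replicate 3, where it met the criteria as lower. miR-93-5p gave 1.61 (SE 1.29). Its value was 0.08 without shCTR replicate 1, the library with 3 counts, and 2.83 and 4.15 without shCTR replicates 2 and 3. Without the filter on low counts miR-93-5p gave 2.25 and met the criteria as higher. Each sign was the same in the quasi-likelihood and DESeq2 fits except for miR-20a-5p, at 0.22 and 0.15.

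**Figure D2:**
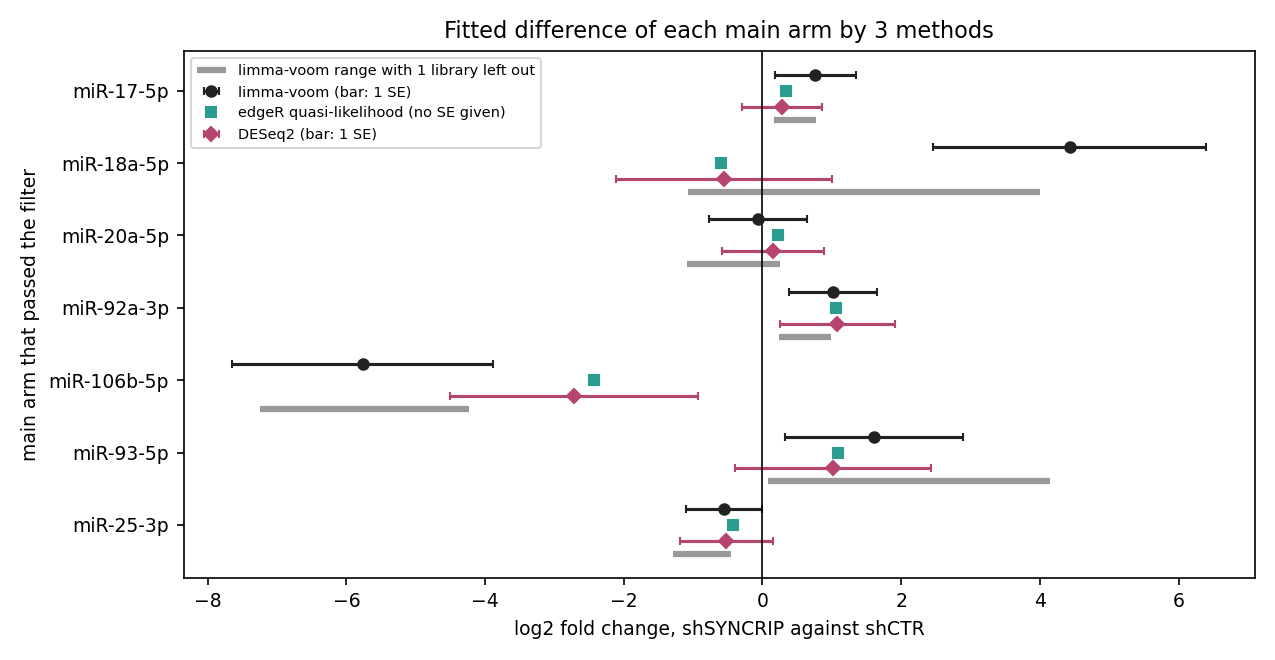
Log2 fold change of shSYNCRIP against shCTR for the 7 main arms that passed the filter, by limma-voom (circles, bars 1 SE), edgeR quasi-likelihood (squares) and DESeq2 (diamonds, bars 1 SE), with grey bars for the limma-voom range when 1 library is left out. The 3 methods lie on one side of 0 for miR-106b-5p and on both sides for miR-18a-5p, whose grey bar runs from -1.08 to 4.01.

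Levels of arms cut from one primary transcript were then compared within each library. The choice of the set compared groups and not arms, but the values of miR-106b-5p and miR-18a-5p that it used enter these differences too. Two-sided exact sign-flip permutation tests with Benjamini-Hochberg adjustment covered 18 pairs, 15 in the MIR17HG cluster and 3 in the MCM7 cluster. Of these, 9 reached an adjusted p of 0.0313 at the smallest exact p that 7 libraries allow, 0.0156. In 7 of the 9 the lower arm was miR-19a-3p or miR-19b-3p, whose counts of 0 set the direction in nearly every library, so these 7 carry no information beyond those counts. Adjusted over the 9 pairs without the miR-19 arms, a choice made after seeing the data, none had an adjusted p below 0.05 and 3 had an unadjusted exact p below 0.05. The number of libraries limits this outcome. Pairs at the smallest exact p, 0.0156, stood at an adjusted p of 0.0703 and could fall lower only if more pairs reached that p. The largest of the 3 differences was miR-25-3p over miR-106b-5p, by 4.16 ± 3.74 on the log2 scale (SD, n = 7, exact p = 0.0156, adjusted p = 0.0703) and in 7 of 7 libraries. miR-17-5p exceeded miR-18a-5p by 2.96 ± 3.08 (SD, n = 7, exact p = 0.0156, adjusted p = 0.0703), also in 7 of 7, and miR-92a-3p exceeded miR-18a-5p by 2.76 ± 3.11 (SD, n = 7, exact p = 0.0313, adjusted p = 0.0938), in 6 of 7. These p-values measure the spread between the 7 labelled biological replicates of both groups. In each of the 3 pairs the lower arm was miR-106b-5p or miR-18a-5p, whose contrast chose the set. The log2 ratio of miR-106b-5p to miR-25-3p averaged -1.62 in shCTR and -6.07 in shSYNCRIP. That of miR-17-5p to miR-18a-5p was 8.72 in shCTR replicate 3 and at most 5.62 elsewhere. The 3 differences are therefore not independent of the choice of the set.

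The abundant arms of the MIR17HG cluster lay closer together, with p-values adjusted over the same 9 pairs. miR-17-5p exceeded miR-20a-5p by 0.58 ± 0.88 on the log2 scale (SD, n = 7, exact p = 0.156, adjusted p = 0.281) and miR-92a-3p by 0.20 ± 0.91 (SD, n = 7, exact permutation test, adjusted p = 0.641). miR-25-3p exceeded miR-93-5p by 1.45 ± 3.37 and miR-93-5p exceeded miR-106b-5p by 2.71 ± 5.96 (SD, n = 7, exact permutation test, adjusted p = 0.382 for each).

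The composition of the miR-106b-25 cluster varied from library to library. miR-106b-5p made up 15.8%, 18.2% and 26.4% of the cluster's counts in shCTR and 11.6%, 0%, 5.70% and 0.0457% in shSYNCRIP, where the 95% interval reached up to 0.280% for replicate 2 and 0.258% for replicate 4. miR-93-5p made up 0.128%, 27.7% and 24.9% in shCTR and 30.3%, 56.2%, 45.6% and 70.8% in shSYNCRIP. miR-25-3p made up 84.1%, 54.1% and 48.7% in shCTR and 58.2%, 43.8%, 48.7% and 29.1% in shSYNCRIP. The groups overlapped for miR-25-3p and stood apart for miR-106b-5p, whose contrast chose the set, and for miR-93-5p. Shares sum to the whole and are not independent, and the groups of miR-93-5p overlapped in CPM. The log2 ratio of miR-93-5p to miR-25-3p, which leaves miR-106b-5p out, was -8.8554, -0.9635 and -0.9635 in shCTR. It was -0.9409, 0.3608, -0.0921 and 1.2799 in shSYNCRIP, a narrow gap. How often shares separate over all miRNAs was not computed, and the cause for miR-93-5p was not tested.

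**Figure D3:**
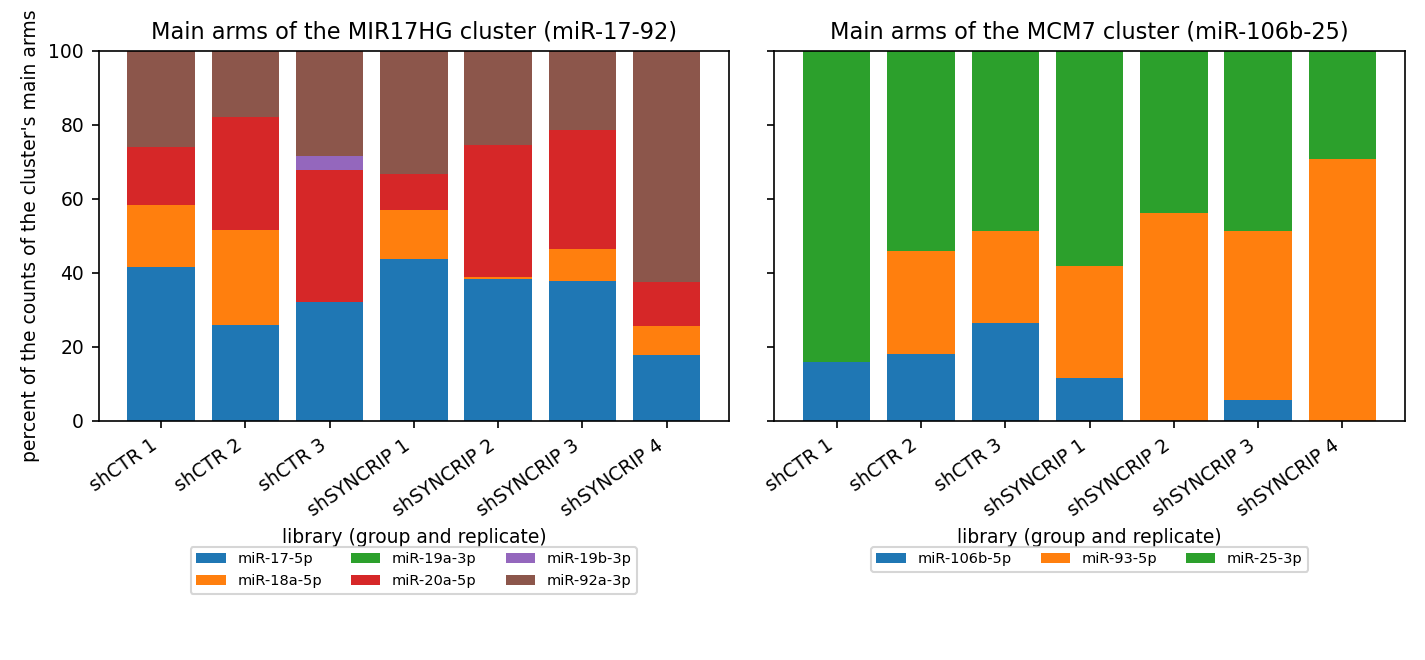
Percent of each cluster's main-arm counts taken by each arm, with 1 stacked bar per library and the MIR17HG cluster on the left. On the right miR-106b-5p takes 15.8% to 26.4% of the shCTR bars and 0% to 11.6% of the shSYNCRIP bars, and miR-93-5p is all but missing from shCTR replicate 1.

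The ratios between co-transcribed arms varied widely from library to library. The SD over the libraries of the log2 ratio had a median of 2.17 over the 6 fitted pairs of the MIR17HG cluster (0.88 to 3.51), 3.74 over the 3 pairs of the MCM7 cluster (3.37 to 5.96) and 3.57 over the 12 pairs between the clusters, against 3.38 over all 6786 pairs of the 117 miRNAs. The 4 members with at least 10 counts in every library, miR-17-5p, miR-20a-5p, miR-92a-3p and miR-25-3p, gave a median of 0.90 over 6 pairs, against 1.15 over the 630 pairs of all 36 such miRNAs. The 6 pairs include those of miR-25-3p with MIR17HG arms, which are not co-transcribed, with SDs of 0.89, 0.76 and 1.57. The co-transcribed pairs among them gave 0.88, 0.91 and 1.26. All these values are descriptions over pairs that share miRNAs and libraries.

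**Figure D4:**
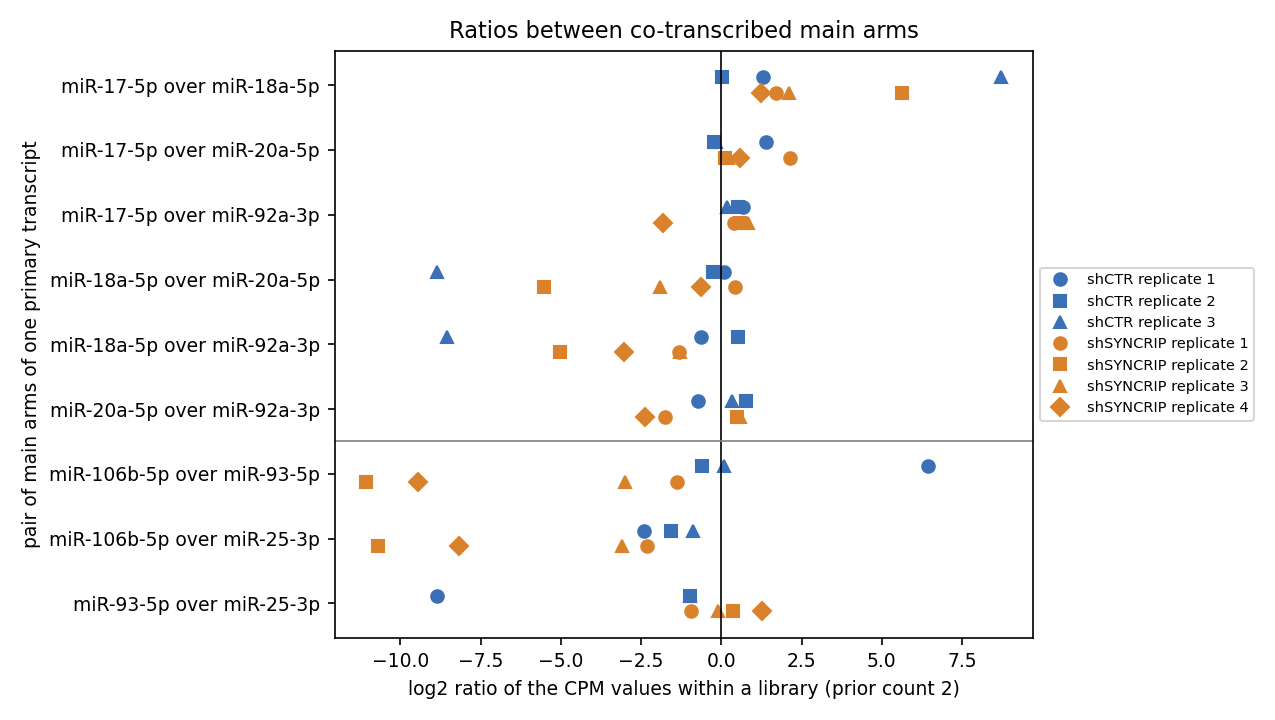
Log2 ratio of CPM within each library for the 9 pairs of fitted co-transcribed arms, with 1 point per library and shCTR drawn above shSYNCRIP in each row. Ratios among miR-17-5p, miR-20a-5p and miR-92a-3p stay within 2.39 of 0, while pairs with miR-18a-5p, miR-93-5p or miR-106b-5p reach -8.87, -8.86 and -11.06.

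The spread of single members fell into the same divide. The SD of log2 CPM over the 7 libraries was 0.55 for miR-17-5p, 0.73 for miR-20a-5p, 0.74 for miR-25-3p and 0.86 for miR-92a-3p, with 7.69% to 16.2% of the 117 miRNAs below them. It was 3.30 for miR-93-5p, 3.33 for miR-18a-5p and 4.17 for miR-106b-5p, the last above 91.5% of the 117. Ranked by abundance within a library, miR-17-5p stayed between places 11 and 25, whereas miR-106b-5p ran from 15 to 188.

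A member was either well counted or nearly missing. Over the 9 members and 7 libraries, 45 of the 63 values were at 306 counts or more, 4 lay between 1 and 9, 14 were 0 and none lay from 10 up to 300. Among all values of the 117 miRNAs, 24.5% lay from 10 up to 300, with no match to the members by abundance. The 9 members include the miR-19 arms, which did not pass the filter. For the 7 that did, 1 of 49 values was 0. The class was not planned, and its bounds lie close to the gap in the members' own counts, so the contrast is a description only. For the 7 fitted members the 5 values below 10 were those of miR-18a-5p in shCTR replicate 3 and shSYNCRIP replicate 2, miR-93-5p in shCTR replicate 1 and miR-106b-5p in shSYNCRIP replicates 2 and 4. The part of library depth in these values was not tested.

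The profile of miR-106b-5p over the libraries was closest to miRNAs from other loci. Only 7 of the 117 tested miRNAs were members, so most candidates were from other loci. By the root-mean-square difference of log2 CPM centred on each miRNA's mean, the nearest of the tested miRNAs over 7 libraries were miR-142-5p at 0.94, miR-451a at 1.46 and miR-10b-5p at 1.98, against a median of 3.97. miR-142-5p had 262, 304 and 675 counts in shCTR and 193, 0, 349 and 0 in shSYNCRIP. miR-451a had 236, 1241 and 2803 against 1042, 1, 6279 and 0. Both are on the list of 8 blood cell miRNAs, and both were at 0 or 1 in shSYNCRIP replicates 2 and 4. Of the rest of that list, the counts in these libraries included 2644 and 9816 for miR-486-5p, 0 and 364 for miR-223-3p and 120 and 0 for miR-150-5p, and the list held 9.28% and 8.85% of the counts of those libraries. The closest member of either cluster was miR-25-3p, in place 25 at 3.46.

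For miR-18a-5p the nearest profiles were miR-10a-5p at 1.58, miR-30d-5p at 2.43 and miR-148a-3p at 2.53, against a median of 3.60. miR-10a-5p had 43, 496 and 7 counts in shCTR and 455, 13, 339 and 427 in shSYNCRIP, with its lowest counts in the same 2 libraries as miR-18a-5p. The closest member was miR-17-5p, in place 9 at 2.85.

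The other arms and relatives were read from a list of 24, with 9 passenger arms, 10 arms of the paralogous miR-106a-363 cluster on chromosome X and 5 seed relatives from elsewhere. Of the 24, 10 were detected, 6 had at least 10 counts in a library, 2 passed the filter and 0 met the criteria with limma-voom. Over all 117 miRNAs 12.8% met them as lower and 5.13% as higher, so 0 of 2 carries little information. miR-106a-5p gave a log2 fold change of 0.03 (SE 2.73) and miR-92b-3p of 0.64 (SE 2.51). The sequences of the 6 relatives described next are shown, seed in capitals, because 2 of them differ from a member by a single base.
hsa-miR-106a-5p: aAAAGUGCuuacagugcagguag
hsa-miR-18b-5p: uAAGGUGCaucuagugcaguuag
hsa-miR-92b-3p: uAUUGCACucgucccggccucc
hsa-miR-25-5p: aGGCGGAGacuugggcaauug
hsa-miR-106b-3p: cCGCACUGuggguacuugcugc
hsa-miR-92a-1-5p: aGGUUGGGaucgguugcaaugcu

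miR-106a-5p differs from miR-17-5p by C1A, outside the seed. It had 524, 8 and 18 counts in shCTR and 686, 2, 29 and 8 in shSYNCRIP. Of the counts of both together it took 17.7% in shCTR replicate 1 (95% interval 16.4 to 19.1) and 17.7% in shSYNCRIP replicate 1 (16.6 to 18.9), against 0.433% to 0.612% in the other 5 libraries. miR-18b-5p differs from miR-18a-5p by A20U and had 681 counts in shSYNCRIP replicate 1, 1 in shSYNCRIP replicate 3 and 0 elsewhere. It took 41.2% of the counts of both in shSYNCRIP replicate 1 (95% interval 38.9 to 43.6). The high miR-106a-5p shares were thus in 1 library of each group. How reads that match both sequences were assigned is not given in the sources used here.

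miR-92b-3p, which differs from miR-92a-3p by U10C, G21C and U22C, had 10, 8 and 10 counts in shCTR and 14, 3, 426 and 0 in shSYNCRIP. Among the passenger arms, miR-25-5p had 686 counts in shSYNCRIP replicate 4, 2 in replicate 3 and 0 elsewhere. It took 51.8% of the miR-25 counts in replicate 4 (95% interval 49.1 to 54.5), the library in which miR-25-3p had its lowest CPM. miR-106b-3p had 1 and 207 counts in shCTR replicates 1 and 2 and 0 elsewhere, and miR-92a-1-5p had 181 counts in shSYNCRIP replicate 3 and 0 elsewhere. Each of these high counts was in 1 library.

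**Figure D5:**
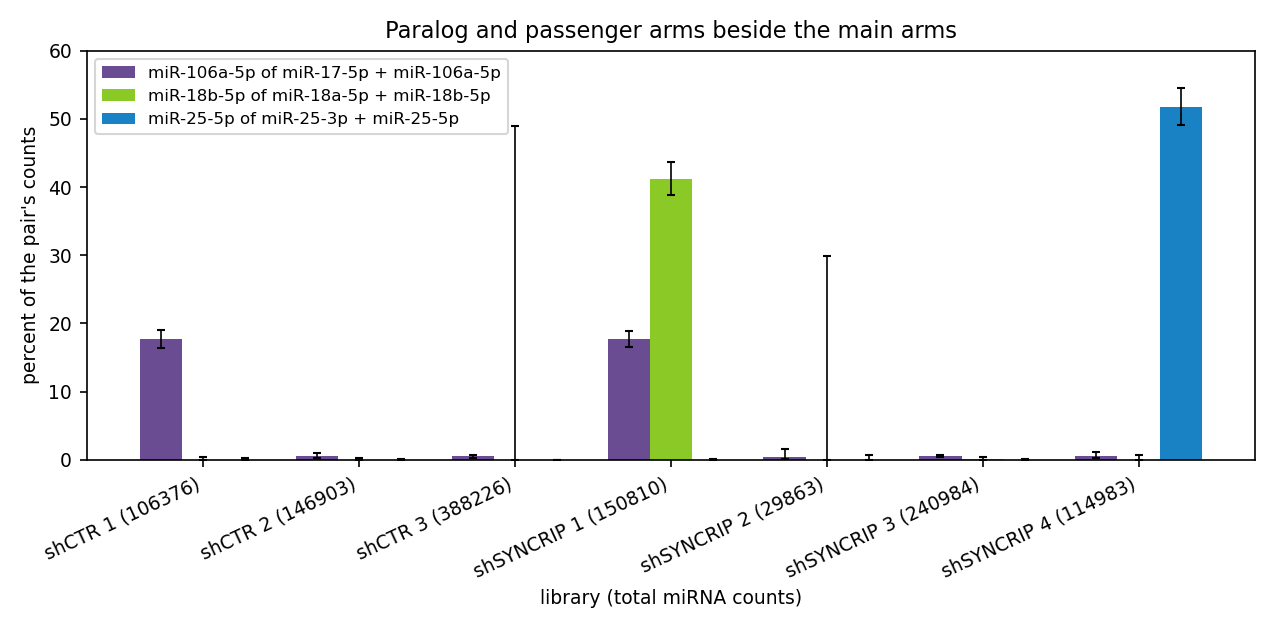
Percent of the counts of a pair taken by miR-106a-5p (with miR-17-5p), miR-18b-5p (with miR-18a-5p) and miR-25-5p (with miR-25-3p) in each library, with 95% Wilson intervals and the library total in brackets. The bars rise above 1% in 3 libraries, with 17.7% for miR-106a-5p in both replicates numbered 1, 41.2% for miR-18b-5p and 51.8% for miR-25-5p. The long intervals at 0 for miR-18b-5p stand over 4 and 9 counts.

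SYNCRIP binds a short motif in miRNAs, termed hEXO, that was searched on the RNA strand from base 8 onward as 3 bases other than C, then a base other than U, then A or U, then G or C. It was present in 8 of the 9 members (88.9%), in 65 of the 105 tested miRNAs with a RefSeq sequence (61.9%) and in 1492 of 2351 different mature sequences (63.5%). The only member without it was miR-92a-3p. The 8 are related sequences and not separate observations. The matches of miR-17-5p, miR-18a-5p, miR-20a-5p, miR-106b-5p and miR-93-5p all include GUGCAG, and both miR-19 arms match at AAACUG. The percentages are therefore no measure of enrichment. The matched bases, with overlapping or adjoining matches joined, are in capitals for the arms that chose the set and for their abundant neighbours.
hsa-miR-106b-5p: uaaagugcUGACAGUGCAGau
hsa-miR-18a-5p: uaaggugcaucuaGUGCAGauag
hsa-miR-17-5p: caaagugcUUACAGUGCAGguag
hsa-miR-93-5p: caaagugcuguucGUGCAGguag
hsa-miR-25-3p: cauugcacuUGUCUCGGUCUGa

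Of the fitted arms with the motif, miR-106b-5p and miR-25-3p had a log2 fold change below 0 with all 3 methods. miR-17-5p and miR-93-5p were above 0 with all 3, and the sign of miR-18a-5p and miR-20a-5p differed by method. With limma-voom the values were -0.55 (SE 0.55) for miR-25-3p, 0.76 (SE 0.58) for miR-17-5p and 1.61 (SE 1.29) for miR-93-5p. These signs come from the contrast that chose the set, and a link between motif and direction was not tested. The letters are a description of the sequence and not a measured binding site.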

How the data were processed

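Small RNA was sequenced from HepG2 sEVs in 3 shCTR and 4 shSYNCRIP libraries. The authors deposited raw counts per mature miRNA, which were used as deposited. The study's methods name adapter trimming with FastqToolkit, length and quality filtering with Cutadapt and quantification with miRDeep2 against miRBase, and the labels name GRCh38, cutadapt and edgeR. Counts were filtered with filterByExpr, scaled by TMM and fitted with limma-voom (R 4.3.3, edgeR 4.0.16, limma 3.58.1) across all 117 miRNAs kept, tested on simulated data. The edgeR quasi-likelihood test, DESeq2 1.42.0, other scalings and filters, left-out libraries, a replicate block and near-identical miRNAs summed were alternatives. Log2 CPM used a prior count of 2. The members and lists were chosen with earlier results of these data known. Named were all members, relatives with at least 10 counts in any library, and the 3 tested miRNAs nearest in profile to miR-106b-5p and to miR-18a-5p. The cell type marker lists served as a check. Seeds, sequences and positions came from RefSeq (GRCh38.p14), and host genes from GENCODE.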

Additional observations from a re-analysis of the deposited data

Results flagged for a closer look

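Among the 18 sets of 4 shSYNCRIP values examined for a library far from the other 3, 2 stood out, where chance alone gives about 0.9. The sets share members and libraries and include counts near 0, so the expected number is only a rough guide. The log2 CPM of miR-18a-5p was 8.33 in shSYNCRIP replicate 2, from 9 counts in the shallowest library, while the other 3 libraries lay between 12.44 and 12.53. The log2 ratio of miR-17-5p to miR-92a-3p was -1.80 in shSYNCRIP replicate 4, while the other 3 lay between 0.39 and 0.82. The cause of either was not tested.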

How the results depend on the processing

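miR-18a-5p changed direction from its limma-voom log2 fold change of 4.43 to -0.60 with quasi-likelihood, -0.55 with DESeq2 and -0.24 with a replicate block, and ran from -1.08 (without shCTR replicate 3) to 4.01 (without shCTR replicate 2) with a library left out. Members meeting the criteria fell from 2 to 0 when every library had to hold 10 counts or more, so that miR-106b-5p, miR-18a-5p and miR-93-5p could not be tested, to 0 with quasi-likelihood, 0 with DESeq2, 1 with the replicate block (miR-106b-5p) and between 1 and 2 with a library left out. miR-106b-5p met them with each of the 7 libraries left out and miR-18a-5p with none of these. The 2 without shSYNCRIP replicate 3 were miR-106b-5p and miR-25-3p. Without the filter on low counts the 2 were miR-106b-5p and miR-93-5p. With shSYNCRIP replicates 2 and 4 both left out, chosen after seeing the data, the count was 1 (miR-18a-5p) and miR-106b-5p moved from -5.77 to -1.81. Summing near-identical miRNAs, also chosen after seeing the data, gave 3 members, with miR-92a-3p added. Without the filter, which left 406 miRNAs fitted, 3 relatives met the criteria instead of 0 (miR-18b-5p, miR-25-5p and miR-92a-1-5p, each carried by 1 library). In the main fit 12.8% of the 117 miRNAs met the criteria as lower and 5.13% as higher. The share over all miRNAs under the other filters, left-out libraries, block and sums is not given here, so these counts are descriptions. Pairs of co-transcribed arms that differed went from 9 to 0 with any library left out, because 6 libraries allow no exact p below 0.0313, and to 0 without the miR-19 arms, chosen after seeing the data. In the latter, pairs at the smallest exact p of the sign-flip test, 0.0156, stood at an adjusted p of 0.0703. Same-numbered libraries of the 2 groups deviated from their group means with correlations of -0.0641, -0.0330 and 0.0883 over 117 miRNAs. Those of differently numbered libraries ran from -0.1424 to 0.1485. With so few libraries these correlations cannot decide whether the replicate numbers mark pairs. Depth limits members at or near 0 most in shSYNCRIP replicate 2, with 29863 counts.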
